A study of Homo sapiens with 38 samples.

Results

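The neuroblastoma cell lines CHLA15 and CHLA20 were compared in their untreated state by RNA sequencing, with 2 libraries of each line. The 4 libraries were chosen by label alone, as those that the series marks as having had no treatment, and they are 4 of the 38 samples in the series. Of the others, 12 belong with them to an experiment of 16 libraries in which CHLA15, CHLA20, NB1643 and NB1691 cells were sequenced with and without palbociclib, an inhibitor of the cell cycle kinases CDK4 and CDK6. CHLA15 and CHLA20 were grown in the same medium, and their treated counterparts had received 300 nM palbociclib for 72 h. The treated NB1643 and NB1691 cells, whose libraries also enter the estimate of spread, had received a higher dose for 72 h. Each line is a single established culture, so a difference belongs to this pair of lines. No source used here says whether the 2 libraries of a line came from separate cultures. The p-values rest on a spread within groups of 2 libraries, estimated over all 16 libraries of the experiment. That spread may be technical. The extraction text in the labels names xenograft tissue, whereas each of these samples is labelled as a cell line and the study describes cultured cells.

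Neuroblastoma arises from the sympathetic branch of the neural crest, and its cells usually keep a noradrenergic program in which HAND2, GATA3 and ISL1 sustain catecholamine synthesis and neuronal genes. A second, mesenchymal program with migratory and matrix genes is known in other lines. CHLA15 and CHLA20 were established from the same patient, CHLA15 at diagnosis and CHLA20 after therapy, which makes them a pair often used to ask what differs between tumor cells of common origin.

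Both lines carried the noradrenergic program at high level. The summed level of 12 noradrenergic markers was 5255 to 5483 CPM (counts scaled to a common library size by TMM, which adjusts library totals for composition) in CHLA15 and 4923 to 5007 CPM in CHLA20. Schwann cell, endothelial and leukocyte markers were low, and the sums of fibroblast and of mesenchymal markers were not. The 7 Schwann cell markers summed to 3.08 to 4.07 CPM over the 4 libraries, 7 endothelial markers to 2.09 to 3.04 CPM and 10 leukocyte markers to 0.461 to 0.766 CPM, with SOX10, PECAM1 and CD3E under 0.1 CPM in every CHLA library. The 9 fibroblast markers summed to 654 to 667 CPM in CHLA15 and 581 CPM in CHLA20, and PDGFRA made up 181 to 292 CPM of that sum. The 6 mesenchymal markers summed to 1412 to 1475 CPM in CHLA15 and 994 to 1036 CPM in CHLA20. Most of that sum came from FN1 (200 to 556 CPM over the 4 libraries) and VIM (522 to 672 CPM). SNAI2 stood at 8.79 to 12.3 CPM, and PRRX1 was under 0.1 CPM in every CHLA library. The part of the fibroblast and mesenchymal markers in the differences below was not tested. Depth was 50754913 to 70127528 counts on genes per library, at which a count of 3 equals 0.0428 to 0.0591 CPM.

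The replicates were not equally close. The chi-square per degree of freedom between the CHLA15 replicates was 3.90, between the CHLA20 replicates it was 19.2, and between libraries of different lines it was 18.6 to 40.6. CHLA20 control 2 lay farther from CHLA15 than CHLA20 control 1 did for 72.8% of the genes called below. Leaving it out lowered the share of all tested genes called, and the counts of the lists are given without it where they changed by over 1.5 times or a list is described at length. Its part in the results was not tested beyond that.

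Between the untreated lines, 2736 of 22133 tested genes differed at an adjusted p under 0.05 (edgeR's quasi-likelihood test with Benjamini-Hochberg adjustment), or 12.4% of them. Of these, 1393 genes (6.29% of those tested) were higher and 1343 (6.07%) were lower in CHLA20. Most differences were small, with a median absolute log2 fold change of 0.36 among called genes and 66.5% of them under 0.5. Only 297 genes, 1.34% of those tested, passed an absolute log2 fold change of 1. Without CHLA20 control 2 the number called was 1370, without CHLA20 control 1 it was 4012, and without CHLA15 control 1 or 2 it was 1130 and 1305. In NB1643 and NB1691, the other lines of the experiment, which do not share a tumor of origin, the same test called 17868 genes or 80.7% (36.1% higher and 44.6% lower in NB1643), of which 11465 passed the log2 fold change of 1. No gene reached 5 CPM in both libraries of either CHLA line while staying at or under 3 counts in both libraries of the other.

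Among called genes of at least 5 CPM whose libraries did not overlap, the 12 with the greatest fold toward each line are described first. KRT17, a keratin of stress-responsive epithelia (chromosome 17, 39775694-39781094, GRCh37), stood at 1.17 and 1.46 CPM in CHLA15 and at 5.92 and 8.71 CPM in CHLA20. Its log2 fold change of 2.48 ± 0.22 (SE, n = 2 against 2, edgeR adjusted p = 8.8e-07) was the largest of the genes named by fold. ITGB5, the integrin subunit that pairs with the alpha V chain to bind vitronectin (chromosome 3, 124480795-124620265), stood at 20.4 and 20.2 CPM in CHLA15 and at 67.5 and 77.5 CPM in CHLA20. That is 3.58-fold higher in CHLA20, with a log2 fold change of 1.84 ± 0.07 and an adjusted p of 5.3e-11. That the libraries of the lines did not overlap for either gene follows from the rule that chose them. Over all tested genes the share without overlap was 50.7%.

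Other genes on the CHLA20 side had log2 fold changes from 1.09 to 1.83. The synapse organizer CBLN1 rose from 10.5 and 10.5 CPM to 27.3 and 33.3 CPM. RAB27B, a small GTPase of secretory vesicles, rose from 7.25 and 6.98 CPM to 19.9 and 20.8 CPM. Both matrix proteins in this group, DPT and ADAMTSL1, remained low in absolute terms, with DPT at 2.28 and 1.93 CPM in CHLA15 and 6.54 and 5.65 CPM in CHLA20. The homeobox factors DLX4 and HOXD13 rose by 1.12 and 1.10, and CCDC68 by 1.83. The remaining 3 were histone genes, HIST1H1C, HIST1H2BK and HIST1H2AC, described with their family below.

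On the CHLA15 side PRLHR, the receptor of prolactin-releasing peptide (chromosome 10, 120349509-120355160), had the greatest fold of the genes with at least 5 CPM. Some called genes with few counts had greater fitted folds. It stood at 17.7 and 19.4 CPM in CHLA15 and at 4.62 and 3.80 CPM in CHLA20, a log2 fold change of -2.13 ± 0.13 (adjusted p = 1.2e-08). SLC6A17, a vesicular amino acid transporter of neurons, fell from 16.3 and 15.6 CPM to 4.36 and 4.35 CPM. FN1, the fibronectin gene (chromosome 2, 216225163-216300796), was by far the most abundant of these genes, at 556 and 533 CPM in CHLA15 and 282 and 200 CPM in CHLA20. Its log2 fold change was -1.17 ± 0.10 (adjusted p = 6.7e-07), and it lies in the mesenchymal list as well. The opioid precursor PENK fell by 1.36, the gap junction protein GJA1 by 1.39 and the prostaglandin receptor PTGER2 by 1.32 on the log2 scale. PCDH17 (-1.41), LIX1 (-1.89), STXBP6 (-1.28), KIAA1683 (-1.25), MDGA1 (-1.21) and the homeobox factor SIX2 (-1.20) complete the group.

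**Figure D1:**
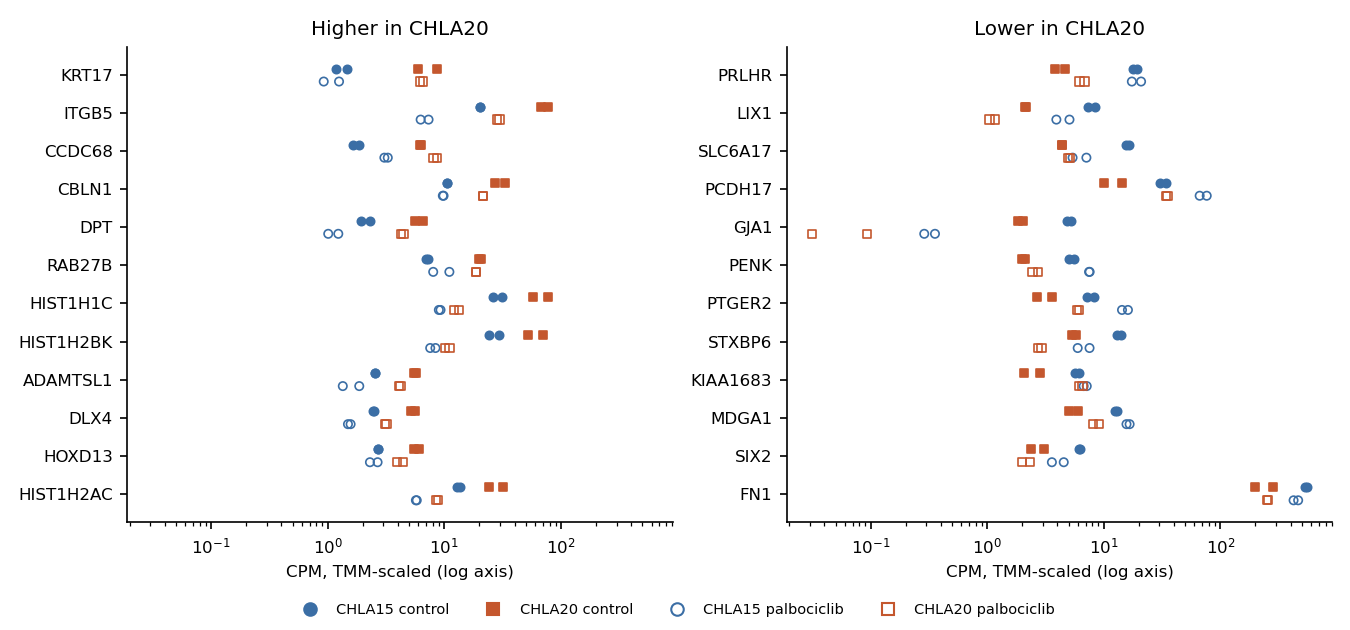
Levels of the 12 genes with the greatest fold in each direction, 24 in all, among called genes of at least 5 CPM whose libraries did not overlap, in TMM-scaled CPM on a log axis, with 1 point per library. Filled circles (CHLA15 control) and filled squares (CHLA20 control) do not overlap for any gene, and open symbols show the palbociclib libraries, where SLC6A17 and KIAA1683 of CHLA20 come close to CHLA15.

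By absolute level the order was different, because abundant genes differed by small folds. Among called genes the greatest rises in mean CPM were those of the glycolytic enzyme ENO1 (1356 and 1240 CPM in CHLA15 against 1527 and 1557 in CHLA20), the translation factor EIF5A and the ribosomal protein genes RPL23, RPS27 and RPS27A. Their log2 fold changes were 0.21 to 0.35. The greatest falls were those of the elongation factor EEF2 (6311 and 6181 CPM against 5273 and 5233), the chaperone HSPA8 (1460 and 1414 CPM against 1002 and 1120), FN1, the microtubule protein MAP1B and the proteoglycan VCAN. Of 81 ribosomal protein genes, 7 were higher and 1 was lower, where 6.29% of all tested genes were higher and 6.07% lower. Their median log2 fold change was 0.09. Without CHLA20 control 2, 3 were higher and none lower, and the median was near 0. The calls of RPL23 and RPS27A were lost without CHLA15 control 1, CHLA15 control 2 or CHLA20 control 2 (adjusted p up to 0.16 and 0.19), those of VCAN and MAP1B without CHLA15 control 1 or CHLA20 control 2 (up to 0.19 and 0.061), and that of EEF2 without CHLA15 control 1 (0.055).

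The clustered protocadherins were lower in CHLA20 or did not pass the test. These cadherin-like surface proteins of neurons are expressed in cell-specific combinations, each from a promoter of its own within the alpha, beta and gamma clusters on chromosome 5. Of 51 tested, 22 were lower in CHLA20 and none was higher, where 6.07% of all tested genes were lower. The median log2 fold change was -0.47, against 0 for all tested genes. The CHLA20 libraries were both below the CHLA15 libraries for 38 of the 51 genes (25.6% of all tested genes) and both above for none. By cluster, 1 of 14 alpha genes, 9 of 15 beta genes and 12 of 22 gamma genes were lower. Without CHLA20 control 2, 9 of the 51 were lower and the median was -0.38.

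PCDHB2 gave the clearest case, at 6.29 and 7.27 CPM in CHLA15 and 3.49 and 3.38 CPM in CHLA20 (log2 fold change -0.97 ± 0.10, adjusted p = 3.3e-06). PCDHGA3 stood at 7.42 and 6.23 CPM in CHLA15 and 3.79 and 3.38 CPM in CHLA20, and PCDHGA6 at 5.27 and 5.34 CPM against 3.23 and 2.47 CPM. For both, the level in CHLA20 was near that of PCDHB2. Many members were low, and 17 of the 51 had a mean under 1 CPM in CHLA15. PCDHGB4 had only 18 and 15 counts in CHLA15 and 3 and 2 counts in CHLA20, and its call was lost without CHLA15 control 1, CHLA15 control 2 or CHLA20 control 2 (adjusted p up to 0.076). Genes of the alpha and of the gamma cluster share their last exons, and reads there could not be assigned to a single gene, so counts of overlapping members are uncertain.

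The promoters of this family carry a short conserved box known from the literature by its core letters CGCT, and the differing beta genes can be read beside it. GGTGGCGCT, a stretch that contains this core, was searched on both strands in the 250 bases before the start site of each RefSeq promoter (GRCh38.p14). It was chosen after inspection of these promoters. It lay in 12 of 47 clustered protocadherin promoters and in 0.43% of all 27237 promoters. Among protocadherins that were lower in CHLA20, 9 of 22 had it, and among those not called, 3 of 24. The counts were not split by cluster, although calls differed by cluster, so they describe the letters only. The stretches around it are shown for the 4 called members with the greatest fold among those that hold it, with the searched letters in capitals.
PCDHB2 (chr5:141094525-141094593): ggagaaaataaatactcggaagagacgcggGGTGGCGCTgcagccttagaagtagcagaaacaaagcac
PCDHB13 (chr5:141213846-141213914): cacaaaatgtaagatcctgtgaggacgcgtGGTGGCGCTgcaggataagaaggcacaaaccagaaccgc
PCDHB10 (chr5:141192280-141192348): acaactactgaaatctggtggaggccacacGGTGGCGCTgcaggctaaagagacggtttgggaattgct
PCDHB12 (chr5:141208624-141208692): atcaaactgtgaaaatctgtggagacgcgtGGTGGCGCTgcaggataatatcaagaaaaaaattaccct
All 4 are read on the plus strand, and the stretch ends 34 to 56 bases before the annotated start. The call of PCDHB13 was lost without each single library (adjusted p up to 0.19), that of PCDHB12 without CHLA15 control 2 or CHLA20 control 2 (up to 0.22) and that of PCDHB10 without CHLA15 control 1 (0.062).

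**Figure D2:**
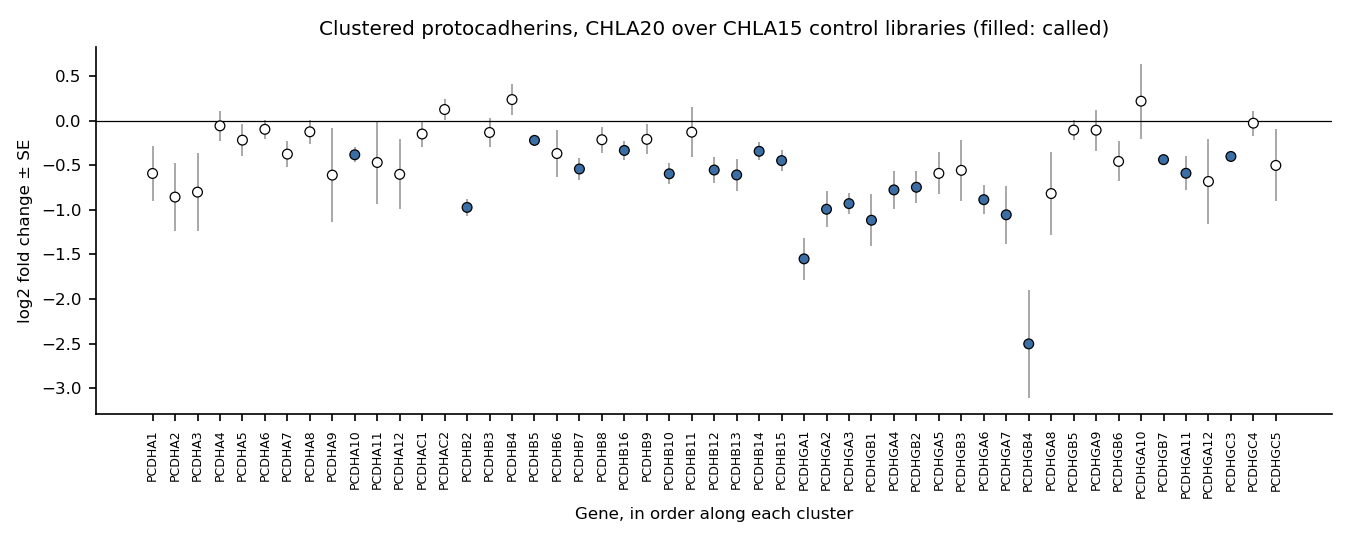
Log2 fold change (CHLA20 over CHLA15 control libraries) of each tested clustered protocadherin with its SE, in chromosomal order within the alpha, beta and gamma clusters. Filled points are the 22 called genes, all below 0, and 3 open points lie above 0.

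Genes of the sympathetic neuron were lower in CHLA20 more often than higher, while 2 of the core factors, described below, did not pass the test. In the catecholamine list 9 of 21 were lower and 1 was higher, with a median of -0.21. For this and the lists that follow, the shares over all tested genes were 6.07% lower and 6.29% higher. The noradrenaline transporter SLC6A2, which also takes up the tracer MIBG, stood at 35.6 and 34.8 CPM in CHLA15 and 18.2 and 21.0 CPM in CHLA20 (log2 fold change -0.85 ± 0.08, adjusted p = 1.2e-06). Both monoamine oxidases were lower, MAOB by 0.57 and MAOA by 0.34, as were the granule proteins SCG5, CHGA and CHGB, the decarboxylase DDC and the cofactor enzyme GCH1. The call of CHGB was lost without CHLA15 control 1, CHLA15 control 2 or CHLA20 control 2 (adjusted p up to 0.11). SPR, which completes synthesis of the same cofactor, was the exception with a rise of 0.59. The enzymes that define the pathway did not pass the test. TH, the rate-limiting step, stood at 201 and 210 CPM against 171 and 185 CPM (log2 difference -0.21, 95% interval -0.38 to -0.03, adjusted p = 0.11), and DBH had a difference of -0.19 (-0.36 to -0.02).

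HAND2, a core factor of sympathetic neurons, had a log2 difference of -0.09 with a 95% interval of -0.20 to 0.02, and PHOX2A one of 0.07 (-0.09 to 0.22). Neither passed the test. Of the 22 adrenergic factors, 9 were lower and 3 higher. GATA3 fell by 0.31 (adjusted p = 0.052 without CHLA15 control 1) and ISL1, a LIM homeobox factor of sympathetic neurons, by 0.41, from 311 and 290 CPM to 225 and 228 CPM. The related zinc finger genes INSM1 and INSM2 moved in opposite directions. INSM1 rose from 6.59 and 6.16 CPM to 11.5 and 14.1 CPM, and INSM2 fell from 119 and 112 CPM to 60.5 and 64.9 CPM.

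In the neuronal list 16 of 61 genes were lower and 5 were higher, and of the 17 neurite and cytoskeleton genes 9 were lower and none higher. The intermediate filament PRPH fell by 0.59, the microtubule protein DCX by 0.43, and the ganglionic nicotinic receptor subunit CHRNA3 by 0.71, from 288 and 289 CPM to 177 and 176 CPM. The synaptic vesicle proteins SV2B and SV2C moved oppositely, SV2B from 7.96 and 8.98 CPM to 16.2 and 15.7 CPM, while SV2C fell by 0.90 on the log2 scale from 47.4 and 44.1 CPM. Somatostatin (SST) rose from 0.185 and 0.261 CPM to 1.65 and 0.941 CPM, and so remained near the floor in CHLA15. Without CHLA20 control 2, 13 neuronal and 8 catecholamine genes were lower.

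The mesenchymal list leaned toward CHLA15, with 10 of 39 genes lower in CHLA20 and 3 higher, though its median of -0.02 was close to that of all genes. The counts were 7 and 2 without CHLA20 control 2. Beside FN1, vimentin (VIM) fell from 672 and 646 CPM to 522 and 548 CPM. PRRX1, a factor that defines this state, had no more than 1 count in any of the 4 libraries, and CAV1 had 6, 2, 0 and 0 counts. SNAI2 and AXL were higher in CHLA20, AXL only at 0.290 and 0.383 CPM against 0.680 and 0.609 CPM. The call of CAV1 was lost without each single library (adjusted p up to 0.27), that of AXL without CHLA15 control 1 or CHLA20 control 1 (up to 0.20) and that of SNAI2 without CHLA20 control 2 (0.058). Extracellular matrix genes split, with 14 of 55 higher and 11 lower, or 11 higher and 6 lower without CHLA20 control 2. The basement membrane chain LAMA4 fell from 59.1 and 60.0 CPM to 36.6 and 34.5 CPM, and the protease inhibitor TIMP3 from 160 and 157 CPM to 99.4 and 88.5 CPM. POSTN and THBS2, both secreted glycoproteins, rose by 1.28 and 1.53 at levels under 5 CPM. Axon guidance and adhesion genes also split, 13 of 57 higher and 16 lower, or 8 and 14 without that library. The semaphorin receptor NRP1 and the repellent SLIT1 fell by 0.79 and 0.93, and the integrin ITGA4 rose by 0.72.

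Genes with a bearing on treatment were read as 3 lists. ABCB1, the efflux pump of many cytotoxic drugs, was lower in CHLA20, at 24.7 and 24.1 CPM against 38.8 and 41.3 CPM in CHLA15 (log2 fold change -0.71 ± 0.07, adjusted p = 1.2e-06). It was the only efflux transporter of 12 to pass the test. In the drug list as a whole 3 of 41 genes were higher, the glutathione transferases GSTM3 and GSTM4 and the monooxygenase CYP1B1, and 3 were lower. Of 18 surface targets and ganglioside enzymes 7 were lower and 2 higher, or 4 and 1 without CHLA20 control 2. B4GALNT1, the GD2 synthase, stood at 112 and 120 CPM against 102 and 103 CPM, a fall of 0.18 (adjusted p = 0.042) that was lost without each single library (up to 0.37), while CD276 did not pass (-0.10, interval -0.21 to 0.01). Of 16 BCL2 family genes, HRK, a sensitizer of apoptosis, fell by 1.31, PMAIP1 and BID rose, and 13 did not pass. The call of BID was lost without CHLA15 control 1, CHLA15 control 2 or CHLA20 control 2 (adjusted p up to 0.14) and that of PMAIP1 without CHLA15 control 1 (0.080).

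In the MHC class I list 5 of 20 genes were higher, all at low level, and 2 were lower. The transactivator NLRC5 rose from 0.765 and 0.992 CPM to 2.24 and 3.14 CPM, the immunoproteasome subunit PSMB8 from 0.936 and 1.03 CPM to 2.21 and 2.03 CPM, and HLA-C from 0.211 and 0.418 CPM to 1.04 and 0.756 CPM. TAP2 and IRF1 were the other members that rose, IRF1 no longer so without CHLA15 control 1, CHLA15 control 2 or CHLA20 control 2 (adjusted p up to 0.13). B2M had a difference of 0.29 (adjusted p = 0.054) and passed without CHLA20 control 1 (0.0013). In the interferon response list none of 25 genes was higher and 1, STAT2, was lower.

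Among receptor kinases and their ligands 15 of 63 genes were higher and 8 lower, or 12 and 4 without CHLA20 control 2. GFRA2, the neurturin co-receptor, rose from 35.8 and 38.5 CPM to 57.0 and 62.7 CPM, and BDNF from 0.699 and 0.713 CPM to 1.45 and 1.53 CPM. ERBB4 fell from 12.5 and 12.5 CPM to 7.95 and 6.20 CPM, and PDGFRA from 292 and 287 CPM to 208 and 181 CPM. ALK, the receptor most often mutated in neuroblastoma, stood at 238 and 229 CPM against 247 and 223 CPM (0.01, interval -0.15 to 0.17). RET had a difference of -0.11 and did not pass the test.

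Among genes at the center of the study, MYC, CDK4, CDK6 and RB1 did not pass the test, while MYCN, KDM6B and CCND1 did. MYC was abundant in both lines, at 719 and 684 CPM in CHLA15 and 662 and 707 CPM in CHLA20, a difference of -0.03 with a 95% interval of -0.23 to 0.16. MYCN was low, at 2.29 and 2.28 CPM against 2.89 and 3.39 CPM, and its rise of 0.45 ± 0.10 (adjusted p = 0.0054) lay within that low range, since NB1643 cells had 3093 and 3257 CPM. MYCN did not pass with limma-voom, the method that the study states, or in the 4 control libraries alone. Nor did it pass without CHLA20 control 2, where the rise was 0.34. KDM6B, the H3K27 demethylase, stood at 106 and 98.3 CPM against 90.3 and 80.7 CPM (log2 fold change -0.26 ± 0.08, adjusted p = 0.037). It did not pass without CHLA20 control 2, where the log2 fold change was -0.18, or without either CHLA15 library. Its call was also lost with scaling by library totals or by median-of-ratios size factors, and in the 4 control libraries alone. CDK4 (0.05, interval -0.08 to 0.17), CDK6 (0.19, interval 0.02 to 0.36) and RB1 (0.14, interval 0.01 to 0.26) did not pass the test, and CCND1 fell by 0.17 (adjusted p = 0.031), a call that each single library left out took away (adjusted p up to 0.30). CDK4 passed without CHLA20 control 1 (0.044) and CDK6 without CHLA20 control 2 (0.0039).

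Among imprinted genes 8 of 30 were lower and 1 was higher, or 4 and 2 without CHLA20 control 2. The lower ones included DLK1, MEG3 and RTL1, neighbors in the imprinted domain of chromosome 14, where MEG3 stood at 224 and 255 CPM against 168 and 105 CPM and DLK1 at 57.8 and 49.0 CPM against 37.1 and 31.4 CPM. In the HOX clusters 5 of 37 genes passed, where 12.4% of all tested genes did, HOXD10 and HOXD13 higher and HOXB2, HOXC4 and HOXC9 lower. The calls of HOXB2 (adjusted p up to 0.25), HOXC9 (up to 0.27) and HOXC4 (0.080) were lost without single libraries, CHLA15 control 1 among them for all 3, and so was that of RTL1 (up to 0.22, without CHLA20 control 2). HOXD10 stood at 11.5 and 11.3 CPM in CHLA15 and 19.3 and 20.3 CPM in CHLA20.

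**Figure D3:**
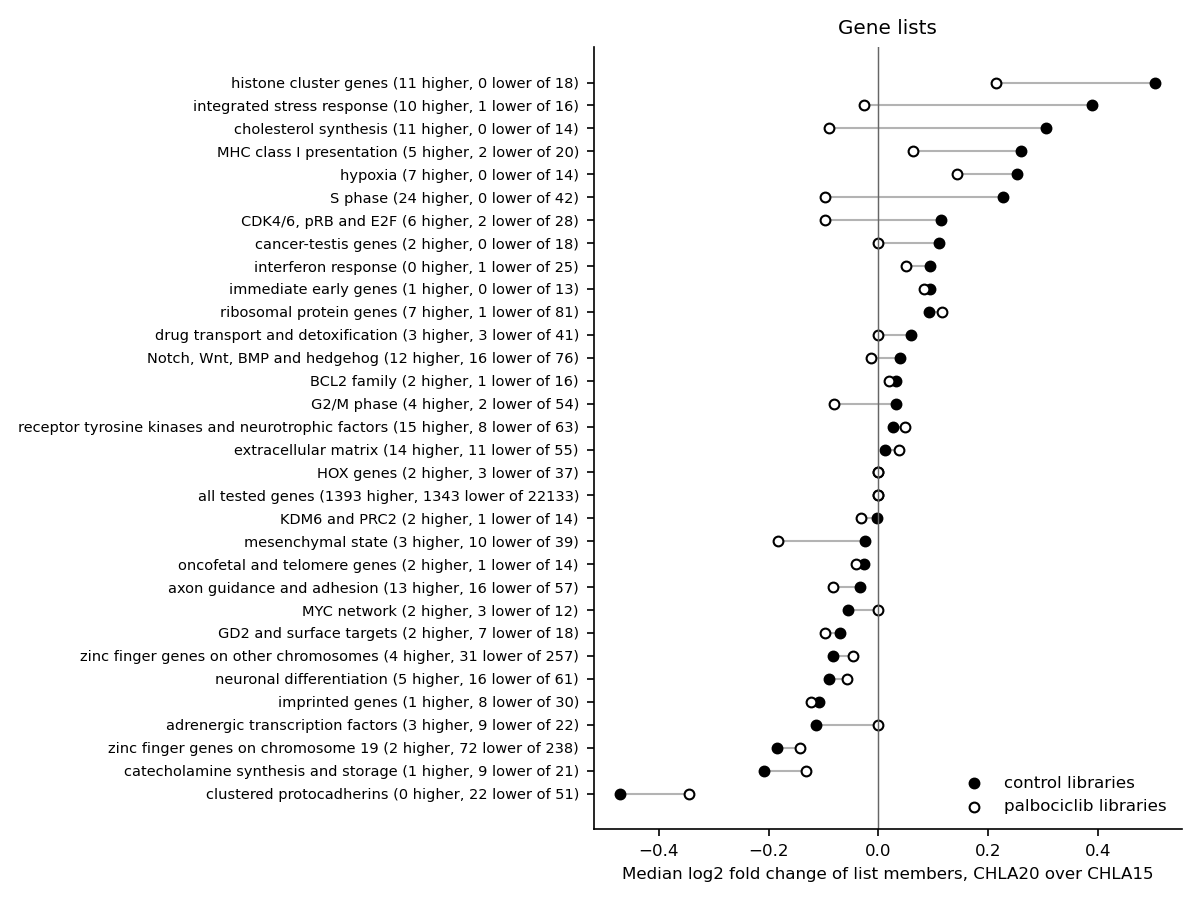
Median log2 fold change (CHLA20 over CHLA15) of the gene lists in the control libraries (filled) and in the palbociclib libraries (open), with the number of members called in each direction in the control libraries. Lists of markers of other cell types and the p53 pathway list are not drawn. Of the lists drawn the protocadherins lie lowest in both, and the stress response, cholesterol and S phase lists lie above 0 in the control libraries and below 0 in the palbociclib libraries.

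Genes of the stress response, of cholesterol synthesis and of hypoxia were more often higher than lower in CHLA20. In the integrated stress response, the program of the factor ATF4, 10 of 16 genes were higher and 1 lower, with a median of 0.39. The serine synthesis enzyme PSAT1 rose from 178 and 180 CPM to 269 and 259 CPM, and CHAC1 and SESN2 by 0.84 and 0.66. In cholesterol synthesis 11 of 14 genes were higher and none lower, with FDPS at 111 and 113 CPM against 155 and 185 CPM. In the hypoxia list 7 of 14 were higher, LDHA among them at 570 and 497 CPM against 651 and 654 CPM (adjusted p = 0.058 without CHLA15 control 2). Without CHLA20 control 2 the numbers higher were 11, 5 and 8 for the 3 lists.

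DNA replication genes followed the same direction. Of 42 S phase genes 24 were higher and none lower, with a median of 0.23. MCM6, a subunit of the replicative helicase, stood at 231 and 240 CPM against 309 and 339 CPM, and the cyclin CCNE2 at 18.2 and 18.2 CPM against 23.0 and 26.2 CPM. The factor E2F1 rose by 0.26, a call lost without CHLA15 control 1 or CHLA20 control 2 (adjusted p up to 0.13). Of 54 G2/M genes 4 were higher and 2 lower. Of 18 histone cluster genes with at least 1 CPM, 11 were higher and none lower. The linker histone HIST1H1C stood at 26.3 and 31.0 CPM against 58.0 and 78.1 CPM, HIST1H2BK at 24.0 and 29.2 CPM against 52.5 and 70.0 CPM and HIST1H2AC at 12.9 and 13.6 CPM against 24.4 and 32.1 CPM. In all 3 the CHLA20 control 2 library was the higher one of its line. Without it 12 S phase and 8 histone genes were called higher, and of the G2/M genes none was higher and 1 lower.

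The palbociclib libraries of the same lines offered 4 further libraries in which to read the line difference. There 2138 genes, or 9.66% of those tested, were called between CHLA20 and CHLA15, 959 higher (4.33%) and 1179 lower (5.33%). With scaling by library totals the split turned to 1168 higher and 799 lower. Of the 2736 genes called in the control libraries, 2196 (80.3%) had the same sign with palbociclib, against 58.2% of all tested genes. Both tests called 973 genes, which is 35.6% of the control calls and 45.5% of the palbociclib calls, and 925 of them had the same direction. ITGB5 had a log2 fold change of 2.09 there, KRT17 one of 2.55 and PRLHR one of -1.55. The protocadherin median was -0.35, with 11 lower and 1 higher.

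The line difference itself differed with treatment for 446 genes (2.02%) by the interaction term, which uses the same 8 libraries. Of these, 254 (1.15%) had the more positive and 192 (0.867%) the more negative difference with palbociclib, a split that turned to 189 of 449 with median-of-ratios size factors. This number ranged from 50 to 1305 when single libraries were left out, so it depends on individual libraries. The interaction was called for 17 of 42 S phase genes, 8 of 14 cholesterol genes and 7 of 16 stress response genes. Their medians with palbociclib were -0.10, -0.09 and -0.03. MCM6 stood at 206 and 204 CPM in CHLA15 and 199 and 196 CPM in CHLA20 with palbociclib, and PSAT1 at 82.5 and 77.5 CPM against 73.1 and 72.1 CPM. Of the genes with greatest fold, SLC6A17 was near 5 CPM in both lines with palbociclib, at 7.09 and 5.40 CPM against 5.15 and 4.91 CPM. None of the 51 protocadherins and none of the 21 catecholamine genes had a called interaction. That is near the share of 2.02% over all tested genes, so it does not set these lists apart.

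**Figure D4:**
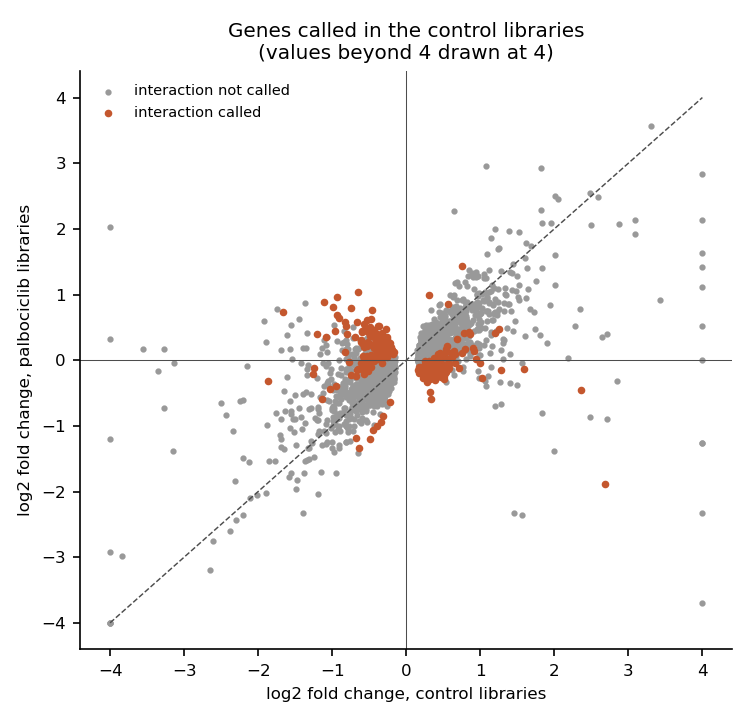
Log2 fold change (CHLA20 over CHLA15) of the genes called in the control libraries, in the control libraries (x) and in the palbociclib libraries (y), which are separate samples. Points on the dashed line have equal values, 80.3% of the genes have the same sign in both, and colored points are genes whose interaction was called.

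The difference between the lines was not spread evenly over the genome. Over 13103 genes with a position in the GRCh37 annotation and a mean of at least 1 CPM, the median log2 fold change was 0.01 in the control and -0.01 in the palbociclib libraries. Of these genes 9.49% were higher and 8.75% lower in CHLA20 control libraries. On chromosome 12 the median was -0.11, and 180 of 706 genes were lower and 21 higher. The palbociclib libraries gave -0.12 there, with 175 lower and 17 higher. On chromosome 1 the part after its widest gene-free stretch, from 143.9 to 249.2 Mb, had a median of 0.14 over 561 genes, 146 higher and 16 lower, and the palbociclib libraries gave 0.10, with 95 higher and 16 lower. The other side of chromosome 1 had a median of 0.01 in the control and -0.02 in the palbociclib libraries. Chromosome 17 had medians of 0.06 and 0.07, with 135 of 795 genes higher and 28 lower in the control libraries, and the part of chromosome 2 up to 89.05 Mb had 0.11 and 0.09, with 69 of 366 higher and 13 lower. Leaving out CHLA20 control 2 gave 91 lower genes on chromosome 12 (median -0.10), and 71, 47 and 34 higher genes on that part of chromosome 1, on chromosome 17 and on that part of chromosome 2 (medians 0.11, 0.05 and 0.10), among 637 higher and 597 lower over all 13103. Chromosome 18 had medians of 0.09 and 0.05, with 37 of 195 genes higher and 8 lower in the control libraries. With palbociclib 9 of its genes were higher and 15 lower, so its calls did not keep their direction. All of these median shifts are small, well under the log2 fold change of 1. The medians of chromosomes 12, 17 and 18 pointed the same way in the separate palbociclib libraries. So did those of the later part of chromosome 1 and of that part of chromosome 2.

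Chromosome 19 was lower as well, with a median of -0.08 over 951 genes, 152 lower and 32 higher, or -0.12, 86 and 16 without CHLA20 control 2. It holds large arrays of KRAB zinc finger genes, whose proteins silence transposable elements. Of 238 zinc finger genes on this chromosome 72 were lower and 2 higher, with a median of -0.18 in the control and -0.14 in the palbociclib libraries. Of 257 on other chromosomes 31 were lower and 4 higher, with a median of -0.08, or 11 and 2 without CHLA20 control 2. ZNF154 fell by 0.84 on the log2 scale, to 9.35 and 7.43 CPM in CHLA20. With CHLA20 control 2 left out, 30 of the 238 were lower and the median was -0.15.

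In runs of 51 neighboring genes the medians ranged from -0.22 to 0.19, and 90% of the runs lay between -0.11 and 0.12. The lowest run lay on chromosome 5 from 140.05 to 142.8 Mb, at the protocadherin clusters, followed by a run on chromosome 19 from 19.65 to 31.2 Mb with -0.19 (-0.20 with palbociclib) and a run on chromosome 12 from 50.9 to 54.67 Mb with -0.19 (-0.07 with palbociclib). The highest lay on chromosome 1 from 151.2 to 155.1 Mb, where 23 of 51 genes were higher and 1 lower and the palbociclib libraries gave 0.17.

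**Figure D5:**
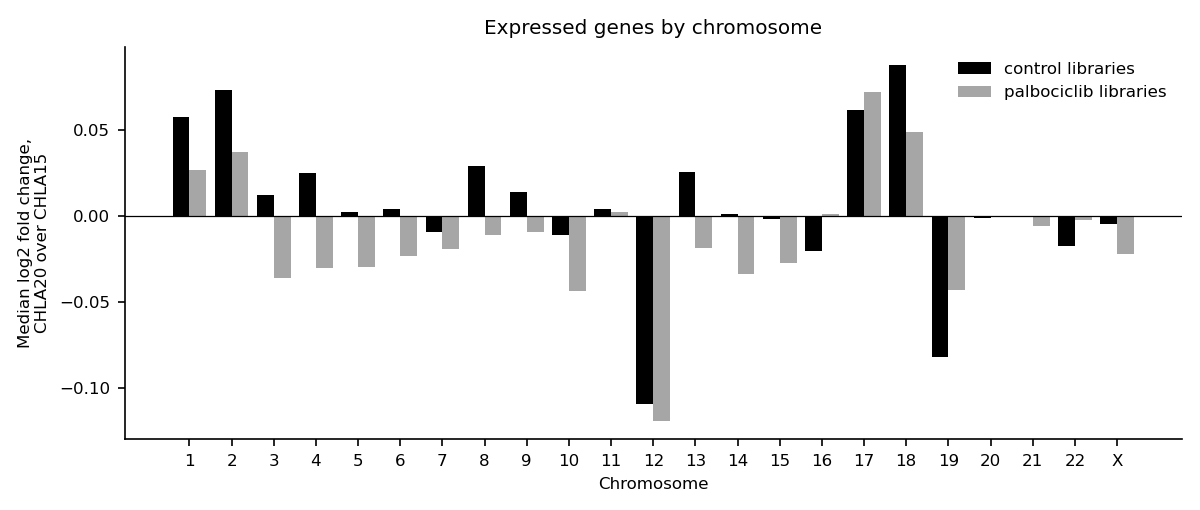
Median log2 fold change (CHLA20 over CHLA15) of expressed genes by chromosome, with control libraries in black and palbociclib libraries in gray. Chromosomes 12 and 19 lie lowest in the control libraries. With palbociclib chromosome 12 lies lowest, and chromosomes 10 (-0.044) and 19 (-0.043) follow. Chromosomes 1, 2, 17 and 18 lie above 0 in both sets of libraries.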

How the data were processed

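RNA was sequenced as paired reads. Per the labels and the study's methods, the authors aligned reads to GRCh37 (hg19) with STAR (2.5.3a, credited to the submitters' processing notes) and deposited whole-number counts per gene from HTSeq, 1 table per sample, with 50778 genes listed. The study names the mouse annotation Gencode vM5, but the symbols in the tables are human.

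The 16 libraries of the palbociclib experiment were fitted together in edgeR 4.0.16 (filterByExpr, TMM, quasi-likelihood F test, 1 mean per line and treatment), so that 8 groups of 2 shared the estimate of spread. The contrasts were CHLA20 against CHLA15 in control and in palbociclib libraries, their interaction, and NB1643 against NB1691. Adjusted p is Benjamini-Hochberg over 22133 tested genes, with a threshold of 0.05, and intervals are 95%. The limma-voom method that the study states (limma 3.58.1) and DESeq2 1.42.0 were alternatives. CPM are TMM-scaled. The scripts were tested on simulated counts. A GRCh37 position was found for 29388 symbols directly and for 1269 further ones by an older symbol.

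The named genes were, among called genes of at least 5 CPM whose libraries did not overlap, the 12 highest and 12 lowest by fold. To these were added the 5 greatest rises and falls in mean CPM, up to 4 called members of each list with the greatest change, defining members not called, and the genes the study is about. Further list members named in the text were chosen after their values were seen. The members and lists were chosen with earlier results of these data known. The S phase and G2/M lists (from Seurat 5.3.0) and the histone, zinc finger and ribosomal protein lists were added after seeing the data. Y-linked genes and XIST were left out, and some genes that the rule names are not reported here. Replicate numbers did not pair the libraries. Between CHLA15 and CHLA20 controls the deviations of same-numbered libraries correlated at r = 0.08 across genes.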

Additional observations from a re-analysis of the deposited data

Results flagged for a closer look

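For 22 named genes the line difference itself differed between control and palbociclib libraries, by the interaction term of the edgeR fit at an adjusted p under 0.05. Each value below is the log2 difference between CHLA20 and CHLA15 with palbociclib minus the log2 difference in the control libraries. The number of genes with such a call depended strongly on single libraries.

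Genes of replication and the cell cycle that were higher in CHLA20 control cells had negative values, MCM6 -0.51, MCM4 -0.37, CCNE2 -0.67, E2F1 -0.45 and E2F8 -0.52, and so had the histones HIST1H1C (-0.77) and HIST1H2BK (-0.79). The stress response genes PSAT1 (-0.70), SESN2 (-0.70) and ATF4 (-0.31), the cholesterol enzyme FDPS (-0.49) and the glycolytic enzymes LDHA (-0.37) and ENO1 (-0.26) lay on the same side. TEX15, a gene of the germ line, had -0.53.

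The transporter SLC6A17 had 1.56 and KIAA1683 had 1.12, where both were lower in CHLA20 in control libraries (-1.87 and -1.25) and neither passed the test with palbociclib (-0.31 and -0.12). HSPA8 had 0.42 and the interferon signaling factor STAT2 had 0.48. DLK1 was lower in CHLA20 in both, by more with palbociclib, with -0.70. POSTN (-1.42), HLA-C (-1.73) and TAP2 (-0.62) were higher in CHLA20 control cells and did not pass the test with palbociclib, at levels under 5 CPM throughout. Reads of HLA-C could be shared with near-identical HLA genes.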

How the results depend on the processing

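The number of genes called between the untreated lines was 2736 and stayed within 1.5 times of that with DESeq2 (2596), limma-voom (2738), other scalings, other filters and the 8 CHLA libraries alone. It was 1285 with the 4 control libraries alone, of which 1264 were shared with the 2736, and 297 with an added absolute log2 fold change above 1. With the replicate number as a block it was 2561, and with the block in the 4 control libraries alone 2089, an alternative added after seeing the data. Leaving out single control libraries gave 1130 to 4012. The contrast with palbociclib gave 835 to 1147 without single libraries, and 2009 with the replicate block. The interaction gave 50 to 1305 without single libraries, 803 with DESeq2, 846 without the filter, 239 in the 8 CHLA libraries alone and 397 with the block. The split of interaction calls was 283 of 420 toward higher with library totals and 291 of 803 with DESeq2. The cause of these changes was not tested, beyond the smaller number of libraries where libraries were left out.

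No named gene reversed its direction with a call in either setting. Over 2037 values of 137 named genes in 15 settings, 135 lost a call and 15 gained one. Of the 121 called genes named in the text, 34 lost their call in at least 1 setting. With 2 libraries a side, differences within their intervals were not detectable here.

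No gene was at the floor in either line and above 2, 5 or 20 CPM in the other. The highest and lowest run medians along the chromosomes, 0.19 and -0.22 with 51 genes, were 0.35 and -0.44 with 25 genes, and the lowest was -0.16 in longer runs. The cause was not tested.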

Other observations

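Signaling lists not described above split between the lines. Of 76 Notch, Wnt, BMP and hedgehog genes 12 were higher and 16 lower in CHLA20, with a median log2 fold change of 0.04. Without CHLA20 control 2 the counts were 6 and 12 and the median was -0.03. LGR5, the R-spondin receptor of the Wnt pathway, stood at 312 and 319 CPM in CHLA15 and 191 and 183 CPM in CHLA20 (log2 fold change -0.75 ± 0.06, adjusted p = 2.3e-07), and the Wnt antagonist DKK1 at 114 and 108 CPM against 72.7 and 72.8 CPM. Both were also lower with palbociclib, by 0.58 and 0.25. The growth factor BMP4 fell from 4.22 and 3.97 CPM to 1.70 and 1.66 CPM, and the repressor TCF7L1 rose by 0.95.

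Of 14 KDM6 and PRC2 genes, the PRC2 subunits EED and SUZ12 rose by 0.28 and 0.21, KDM6B fell, and 11 did not pass, while 1 was higher and none lower without CHLA20 control 2. The calls of EED and SUZ12 were lost without CHLA15 control 1 or 2 (adjusted p up to 0.085 and 0.10), that of EED also without CHLA20 control 2, and KDM6B is described above. EZH2, the methyltransferase, had a difference of 0.09 (interval -0.02 to 0.20), and KDM6A one of -0.06 (-0.18 to 0.06). Of 28 genes of the CDK4, CDK6, pRB and E2F axis 6 were higher and 2 lower, or 3 and 1 without CHLA20 control 2, with CCNE1 higher by 0.39 and the inhibitor gene CDKN2A lower by 0.65 at levels under 5 CPM (adjusted p = 0.052 without CHLA20 control 1). In the MYC network 2 of 12 genes were higher and 3 lower, and none was called without CHLA20 control 2. Of 18 cancer-testis genes 2 were higher. Of 14 oncofetal and telomere genes 2 were higher and 1 lower, calls that depended on CHLA20 control 2. The lower one was HMGA2, with 2, 7, 0 and 0 counts, and its call was lost without CHLA15 control 2, CHLA20 control 1 or CHLA20 control 2 (adjusted p up to 0.27). The cadherin CDH13 had 32 and 20 counts in CHLA15 and 1 and 2 counts in CHLA20.

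Among the 973 genes called in both the control and the palbociclib libraries, 48 had opposite signs. MCM4 and E2F8 were 2 of these, at 270 and 268 CPM against 296 and 311 CPM for MCM4 in control cells and 252 and 254 CPM against 224 and 217 CPM with palbociclib. In the control libraries the calls of MCM4 and E2F8 were lost without CHLA15 control 1, CHLA15 control 2 or CHLA20 control 2 (adjusted p up to 0.19 and 0.16).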
